A study of Mus musculus with 8 samples.

Results

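Annexins are cytosolic proteins that bind acidic phospholipids, above all phosphatidylserine, when calcium rises. In macrophages they are known for membrane repair, for traffic of vesicles, for the clearance of dying cells and, in the case of annexin A1, for a signal that ends inflammation. Secreted annexin A1 acts on formyl peptide receptors, which are G protein-coupled receptors that leucocytes also use to sense bacterial and mitochondrial peptides. The genes examined were 8 annexins (Anxa1, Anxa2, Anxa3, Anxa4, Anxa5, Anxa6, Anxa7 and Anxa11) and the receptors Fpr1 and Fpr2, chosen by exact gene symbol. Of these 10 genes, 8 were measured among 18820 genes in all, because no probe set with 1 symbol carried the name Fpr1 or Fpr2, and both receptors were not analysed here. The annexins were selected with their differences between diets already known, so those differences are a description, and fits across all genes that include them lend them no support.

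Adipose tissue macrophages (ATMs) came from epididymal adipose tissue of male, wildtype C57Bl/6 mice whose age was not given in the sources used here. They were isolated with magnetic beads against the macrophage surface protein that Adgre1 encodes, and the RNA on an array came from several mice pooled. Each of 4 experiments gave 1 array of ATMs from obese mice on a high-fat diet with lard (HFD) and 1 array of ATMs from lean mice on a matched low-fat diet (LFD, 10 kcal% fat), 8 arrays in all. The HFD held 45 kcal% fat in experiments 1 and 3, which lasted 16 weeks, and 60 kcal% fat in experiments 2 and 4, which the labels give as 15 and 10 weeks. Because the RNA came from whole pools of sorted cells, fewer cells of a type and less RNA per cell cannot be told apart. Levels are log2 values made by the authors with RMA (robust multi-array average), where a difference of 1 is a doubling, and levels of different genes are not compared with each other. A level under 4.32, the median of all deposited values, is called dim. All 8 annexins lay above it on all 8 arrays.

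The pools of experiment 1 stood apart before any annexin was considered. The mean level of 18 endothelial markers was 10.59 and 10.25 in its lean and obese pools, against 5.94 to 9.06 elsewhere, and that of 11 macrophage markers was 7.90 and 9.11, against 10.36 to 10.98. Adgre1 was lowest on the same arrays (6.54 and 8.58, against 9.95 to 10.95). Results are therefore given by experiment, and without experiment 1 where that moves them.

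Anxa1, the ligand of formyl peptide receptors in this group, showed the largest difference between diets of the 8 annexins in each of the 4 experiments. Its level was 10.28, 10.62, 11.18 and 11.36 in ATMs from obese mice of experiments 1, 2, 3 and 4, and 8.99, 9.19, 9.29 and 10.40 in ATMs from lean mice. The groups overlapped only through the lean pool of experiment 4, which lay above the obese pool of experiment 1. Within experiments the obese pool was higher by 1.29, 1.43, 1.90 and 0.97. The mean difference was 1.40 (SE 0.36, and 0.16 with experiment as a block, n = 4 pools per diet), or 2.63-fold. In single experiments it was 1.95-fold to 3.72-fold. Here and below an SE is from the fit that leaves out the pairing by experiment, unless the block is named. That mean difference ranked 84 from the top of 18820 genes, and 46 genes, Anxa1 included, had a difference of at least 0.97 in every experiment.

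Anxa2 encodes the annexin that joins the S100 protein p11 in a surface complex that binds plasminogen and tissue plasminogen activator. Its level was 10.11, 9.85, 10.14 and 10.36 in ATMs from obese mice of experiments 1 to 4 and 9.49, 9.02, 9.13 and 9.93 in ATMs from lean mice. Again a single pair of pools overlapped, the lean pool of experiment 4 with the obese pool of experiment 2. The differences within experiments were 0.62, 0.83, 1.02 and 0.43, a mean of 0.72 (SE 0.21) or 1.65-fold. Both Anxa1 and Anxa2 had their largest difference in experiment 3 and their smallest in experiment 4.

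Anxa5, whose product is widely used as a probe for phosphatidylserine on dying cells, showed the most even difference among these genes. It lay at 11.08, 11.30, 11.42 and 11.35 in ATMs from obese mice and at 10.66, 10.83, 11.12 and 10.78 in ATMs from lean mice of experiments 1 to 4. The lean pool of experiment 3 lay above the obese pool of experiment 1, and the other lean pools lay below all obese pools. The differences were 0.41, 0.47, 0.30 and 0.58, with an SD of 0.11 over the 4 experiments and a mean of 0.44 (SE 0.12).

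Anxa4, an annexin best known from epithelial secretory membranes, was above the lean pool in the obese pool of all 4 experiments, but its level depended strongly on the experiment. It was 9.12, 9.96, 10.11 and 10.40 in ATMs from obese mice and 8.29, 9.27, 9.77 and 9.66 in ATMs from lean mice. Both pools of experiment 1 were lower than every pool of the other experiments. The differences within experiments were 0.83, 0.68, 0.33 and 0.74, a mean of 0.65 (SE 0.39, and 0.11 with experiment as a block). Without the lean pool of experiment 1 the difference was 0.33, and without its obese pool 0.91, since an unpaired mean then carries the low level of the remaining pool.

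Anxa3 was also higher in all 4 experiments, with the smallest mean difference of the 5 annexins that were. Its level was 9.87, 9.30, 9.43 and 9.56 in ATMs from obese mice and 9.83, 9.13, 8.76 and 9.12 in ATMs from lean mice. The difference was 0.04 and 0.18 in experiments 1 and 2 and 0.67 and 0.44 in experiments 3 and 4, a mean of 0.33 (SE 0.23). That mean was 0.43 without experiment 1 and 0.54 without only its lean pool. It was 0.22 without experiment 3 and 0.18 without only its lean pool. Both pools of experiment 1 were the highest of their diet, as for no other annexin here, and endothelial markers were highest on the same arrays. The part of endothelial RNA in the Anxa3 level was not tested.

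Anxa7 and Anxa11 encode annexins with long N-terminal tails that bind the calcium sensors PDCD6 and sorcin. Anxa11 lay at 9.52, 9.63, 9.91 and 9.76 in ATMs from obese mice and at 9.54, 8.87, 9.21 and 9.49 in ATMs from lean mice, with differences of -0.01, 0.76, 0.70 and 0.27. Anxa7 lay at 7.06, 6.998, 7.19 and 7.20 in ATMs from obese mice and at 7.14, 6.67, 6.86 and 6.61 in ATMs from lean mice, with differences of -0.08, 0.33, 0.34 and 0.59. Both thus differed by less than 0.1 in experiment 1 and were higher in ATMs from obese mice in the other 3 experiments. Their mean differences were 0.43 (SE 0.16) and 0.29 (SE 0.13), and 0.58 and 0.42 without experiment 1. Without experiment 4 that of Anxa7 was 0.20.

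Anxa6, the annexin with a duplicated core, was the member without a direction. It lay at 8.69, 8.72, 8.69 and 8.59 in ATMs from obese mice and at 8.60, 8.86, 9.06 and 8.34 in ATMs from lean mice. The differences were 0.09, -0.15, -0.37 and 0.25, and their mean was -0.04 (SE 0.15). The obese pools lay within 0.13 of each other, whereas the lean pools spanned 0.72. Anxa6 and Anxa11 each had a further probe set, and those lay between 3.14 and 3.74 and between 3.50 and 4.43, at or near dim levels.

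**Figure D1:**
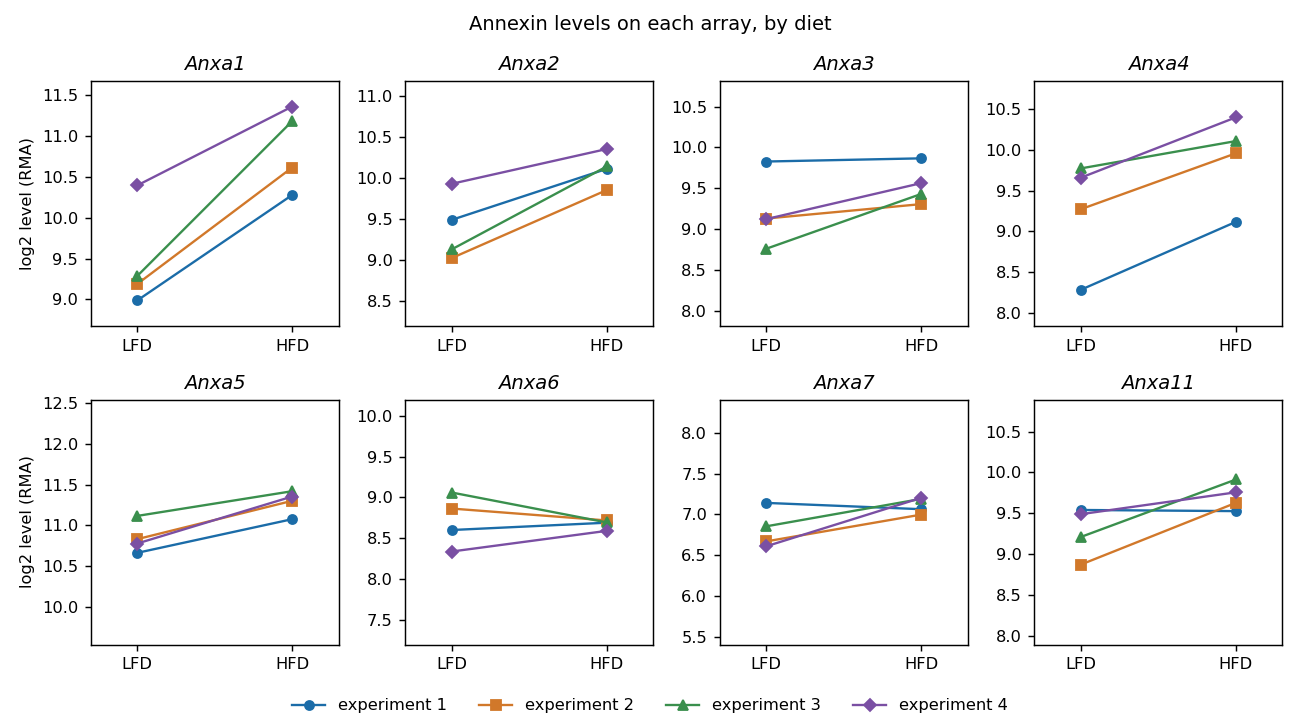
Levels of the 8 annexins on each array (log2, RMA), with the LFD and HFD pool of an experiment joined by a line. Every panel spans 3 log2 units. All 4 lines slope up for Anxa1, Anxa2, Anxa3, Anxa4 and Anxa5, and lines of Anxa6 cross.

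**Figure D2:**
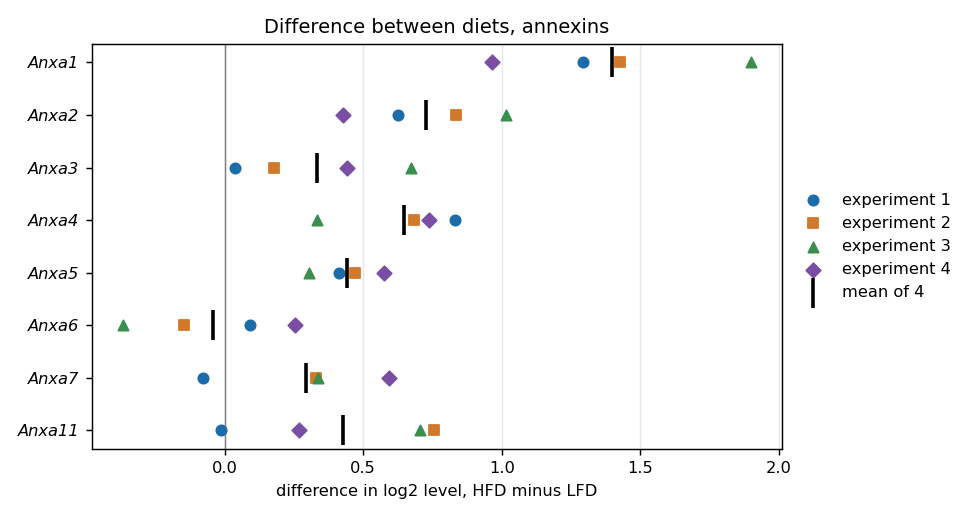
Difference in log2 level (HFD minus LFD) of the 8 annexins. Points stand for single experiments and the black bar for the mean of the 4. Anxa1 lies furthest to the right in every experiment (0.97 to 1.90), and Anxa6 lies on both sides of 0.

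Over the group, 5 of 8 annexins (Anxa1, Anxa2, Anxa3, Anxa4 and Anxa5) were higher on the HFD in all 4 experiments, 0 were lower in all 4, and 3 were mixed. Of all 18820 genes, 11% were higher and 7.43% lower in all 4. Without experiment 1, a count added after the values were seen, 7 of 8 were higher in each of the other 3 experiments, all but Anxa6, against 17.4% of all genes. The pools of the diets overlapped for all 8 annexins, and 1.19% of all genes had every obese pool above every lean pool. The median difference of the 8 annexins was 0.43, and 0.25, 0.58, 0.50 and 0.51 in experiments 1 to 4, against 0.005 for all genes. In limma's fit across all genes, 0 of the 8 annexins and 0 genes (0%) passed an adjusted p under 0.05, with or without experiment as a block. At an unadjusted p under 0.05 in limma, 4 annexins were higher and 0 lower (all genes, 3.3% higher and 1.51% lower), and with the block 6 were higher and 0 lower (all genes, 7.95% and 4.16%). The methods' t-test called 0 genes after adjustment, and at p of 0.05 or less, unadjusted, it called 2.78% of genes higher and 1.52% lower. Since this contrast was known when the annexins were chosen, nothing is read from these shares.

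The sequences just upstream of the start sites are shown for Anxa1, Anxa2 and Anxa5, the 3 annexins with the largest difference relative to its SE in the fit without a block, to set side by side genes that were higher in all 4 experiments. With the SE of the block, Anxa4 would take the place of Anxa5. They are the 250 bases before the start in RefSeq (GRCm38.p6), at chr19:20390672-20390921 on the minus strand for Anxa1, chr9:69453433-69453682 on the plus strand for Anxa2 and chr3:36475888-36476137 on the minus strand for Anxa5, written 5′ to 3′ along the gene. Capitals mark matches, on either strand, to a TATA box (TATAAA), a GC box (GGGCGG) or an AP-1 site (TGANTCA).
Anxa1 promoter: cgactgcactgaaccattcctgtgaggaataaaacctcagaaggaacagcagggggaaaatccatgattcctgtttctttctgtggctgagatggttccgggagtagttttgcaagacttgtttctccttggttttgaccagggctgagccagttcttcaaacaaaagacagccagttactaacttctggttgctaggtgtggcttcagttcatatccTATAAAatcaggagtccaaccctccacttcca
Anxa2 promoter: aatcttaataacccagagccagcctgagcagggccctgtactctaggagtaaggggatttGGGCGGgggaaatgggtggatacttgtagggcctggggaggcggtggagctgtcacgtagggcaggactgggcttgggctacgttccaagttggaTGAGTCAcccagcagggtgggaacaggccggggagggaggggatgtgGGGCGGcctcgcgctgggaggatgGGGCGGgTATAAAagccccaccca
Anxa5 promoter: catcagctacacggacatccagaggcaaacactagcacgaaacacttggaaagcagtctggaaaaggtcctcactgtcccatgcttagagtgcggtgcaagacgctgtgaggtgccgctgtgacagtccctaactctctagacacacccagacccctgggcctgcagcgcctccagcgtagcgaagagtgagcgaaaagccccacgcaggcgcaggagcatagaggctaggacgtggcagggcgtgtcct

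None of these motifs was in all 3 promoters, and a TATA box was in those of Anxa1 and Anxa2. That of Anxa1 held a single match, a TATA box that begins 32 bases before the start, with 2 CpG dinucleotides and a GC content of 46.0%. That of Anxa2 held a TATA box 17 bases before the start, GC boxes 190, 48 and 24 bases before it, and an AP-1 site 95 bases before it, and no matches overlapped. That of Anxa5 held no match, with 13 CpG dinucleotides and a GC content of 58.8%. Of 32851 promoters of the same length in the table, 12.4% held the TATA box, 32.7% the GC box, 6.75% the AP-1 site and 52.0% none of them. A match to a short motif is a description of the letters and not a site shown to be used.

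The 4 experiments were compared with each other by an F test of the experiment term in limma, with diet in the fit. The experiments also differed in the fat content of the HFD and in weeks, which this term does not separate. Of the 8 annexins, 1 passed (Anxa4, limma adjusted p = 0.0305), against 8.96% of all genes, so the annexins did not stand out in this respect. With the diet means removed, Anxa4 lay 0.87 below its mean in experiment 1 and 0.04, 0.37 and 0.46 above it in experiments 2, 3 and 4. Anxa1 (limma adjusted p = 0.0664) lay at -0.53, -0.26, 0.07 and 0.72 in the same order. The call of Anxa4 was held in 8 of 17 alternatives, with limma adjusted p between 0.0114 and 0.719. It was lost in limma without the obese pool of experiment 1 (adjusted p = 0.143), 2 (0.107) or 4 (0.0847), without the lean pool of experiment 1 (0.258), 2 (0.110) or 4 (0.0796), and without both pools of experiment 1 (0.719), 2 (0.0647) or 4 (0.0528). Anxa1 passed without the obese pool of experiment 3 (limma adjusted p = 0.0249), the lean pool (0.0325) or both (0.0201), and with array medians set equal (0.0211). Whether the difference between diets differed between the 45 and 60 kcal% diets was asked by an interaction term, with which 0 of the 8 annexins and 0% of all genes passed in limma (3.95% of genes at an unadjusted p under 0.05). The term rests on 2 experiments per fat content. In simulated data it found 0 of 100 planted changes of 1 log2 unit and 0 of 100 of 2 log2 units. Its count of 0 therefore carries no weight.

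Markers of other cells differed between the pools, and their values are given beside those of the annexins. Neutrophils carry much annexin A1. Of 11 neutrophil markers, 9 were dim on all 8 arrays, S100a8 and S100a9 among them. The other two were Csf3r, which encodes the receptor of granulocyte colony-stimulating factor, and the matrix metalloproteinase gene Mmp9. Csf3r differed by 0.19, -0.52, -1.05 and -0.50 in experiments 1 to 4 and Mmp9 by -0.08, -3.36, -3.70 and -1.31. The mean of the neutrophil list was 3.19 to 3.53 in ATMs from obese mice and 3.11 to 3.89 in ATMs from lean mice. Fibroblasts also express annexins, and the mean of 7 fibroblast and preadipocyte markers was 7.20 to 8.81 in ATMs from obese mice and 5.96 to 8.07 in ATMs from lean mice. None of these 7 was dim on all arrays. That mean differed between diets by -0.01, 0.73, 1.24 and -0.45 in experiments 1 to 4, while Anxa1 differed by 1.29, 1.43, 1.90 and 0.97. Anxa1, Anxa2 and the fibroblast list thus had the same order of experiments. Of the 7 fibroblast markers, 3, 7, 7 and 2 were higher in ATMs from obese mice in experiments 1, 2, 3 and 4. The collagen genes Col1a1 and Col3a1, named after their values were seen, were higher in all 4. Col1a1 differed by 0.50, 1.45, 1.81 and 0.25 and Col3a1 by 0.74, 1.51, 1.77 and 0.10. The other fibroblast markers, Pdgfra, Dcn, Lum, Pi16 and Dpt, differed by -0.71, -1.01, -0.38, -0.60 and -0.82 in experiment 4. In experiment 1 all of these but Lum (0.13) were lower as well. The endothelial mean differed by -0.34, -0.77, 1.88 and -1.57, and the macrophage mean by 1.21, 0.003, -0.29 and 0.10. The mean of 5 mast cell markers differed by -0.27, 1.66, 0.85 and -0.09, on average 0.54, the largest of any list. The mast cell gene Cpa3 differed by -0.86, 3.43, 1.35 and 0.02 and was dim on 6 of 8 arrays. The mesothelial, adipocyte, dendritic cell, T cell and B cell means differed on average by -0.01, -0.11, -0.15, -0.11 and -0.42. The part of these cells in the annexin differences was not tested.

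**Figure D3:**
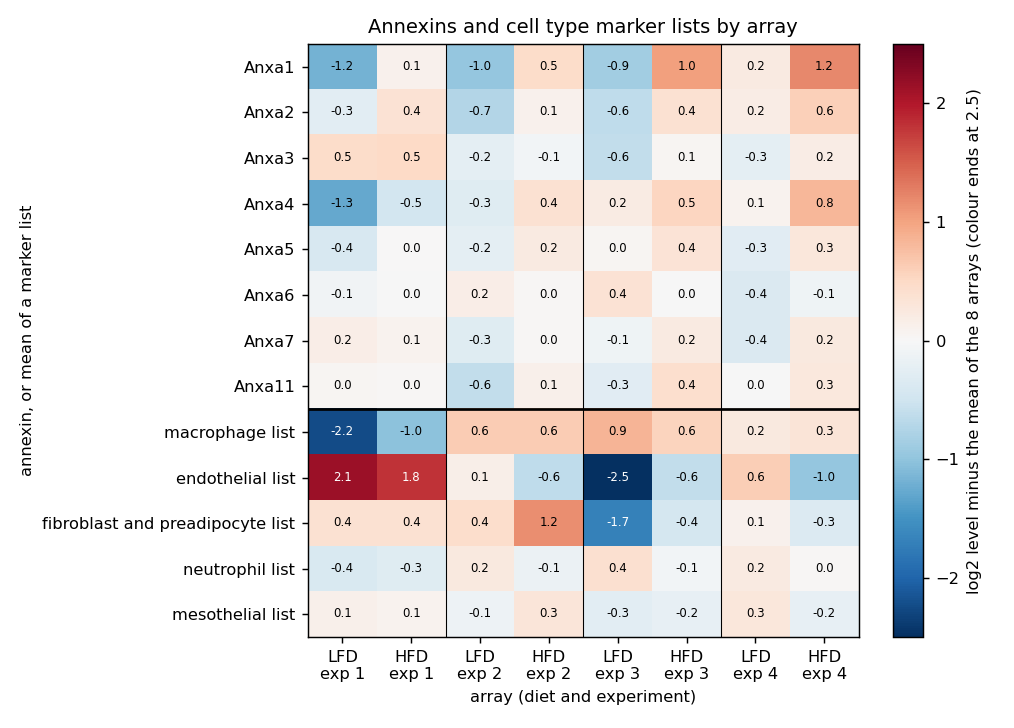
Log2 level of each annexin, and mean log2 level of each marker list, minus its mean over the 8 arrays (colour and number). Columns are arrays in pairs by experiment. The macrophage list is lowest and the endothelial list high on both arrays of experiment 1, and Anxa1 is higher in the HFD column of every pair.

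Genes of the same pathways were described from 5 further lists. Of their 56 measured genes, 0 passed an adjusted p under 0.05 in limma with or without experiment as a block (0% of all genes). The smallest adjusted p among them was between 0.0640 and 1 over 18 alternatives of the limma fit. At an unadjusted p under 0.05 in limma, 4 were higher and 3 lower, and with the block 8 and 5. Of all genes, 3.3% were higher and 1.51% lower, and with the block 7.95% and 4.16%. Of the 56 genes, 9 were higher and 7 lower on the HFD in all 4 experiments, against 11% and 7.43% of all genes. The same shares of all genes stand beside the counts of each list below.

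Of 14 annexin partners, which are S100 proteins, membrane repair proteins and calcium sensors, 3 were higher on the HFD in all 4 experiments and 0 lower, with a median difference of 0.13. Myof, which encodes the membrane repair protein myoferlin, differed by 0.51, 0.40, 0.59 and 1.07 in experiments 1 to 4 (mean 0.64, SE 0.25). Dysf, another membrane repair gene, had no single direction, with 0.08, -1.18, 1.58 and -1.23 (mean -0.19, SE 1.07). Trim72 and Dysf were looked up after their values were seen. Pdcd6, which encodes the calcium sensor that binds annexins A7 and A11, differed by 0.26, 0.23, 0.15 and 0.27 (mean 0.23, SE 0.08). S100a10, which encodes p11, the partner of annexin A2, was looked up after its values were seen. It lay between 9.67 and 10.18 on all arrays and differed by -0.20, 0.29, -0.09 and 0.18 (mean 0.05, SE 0.12), beside 0.62, 0.83, 1.02 and 0.43 for Anxa2.

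In the surface plasminogen system, 2 of 6 genes were higher and 1 lower in all 4 experiments. Plau, which encodes the plasminogen activator urokinase, lay at 10.26, 10.72, 10.89 and 11.09 in ATMs from obese mice and at 8.57, 9.15, 9.64 and 10.16 in ATMs from lean mice of experiments 1 to 4. The lean pools all lay below the obese pools, and the mean difference was 1.36 (SE 0.34), or 2.57-fold. Plaur, which encodes its receptor, differed by 0.21, 0.94, 0.46 and 0.76 (mean 0.59, SE 0.19). Serpinb2, which encodes an inhibitor of urokinase, lay at 3.83, 4.55, 4.82 and 4.15 in ATMs from obese mice and at 4.06, 6.45, 6.10 and 7.66 in ATMs from lean mice. It was dim on both arrays of experiment 1 and in the obese pool of experiment 4, so its difference is set against a dim level there. The differences in experiments 2 and 3 were -1.90 and -1.28, opposite in direction to Plau. The mean over the 4 was -1.73 (SE 0.69), and -1.13 without experiment 4.

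Among 15 genes for ligands of formyl peptide receptors and for pro-resolving lipid pathways, 2 were higher and 2 lower in all 4 experiments. Of the 15, 5 were dim on all 8 arrays. The median difference of -0.11 was that of Camp, which is among these dim genes, so nothing is read from it. Ccrl2, a receptor-like protein that holds the chemoattractant chemerin, differed by 1.15, 1.52, 0.29 and 0.79 (mean 0.94, SE 0.67, and 0.21 with the block). That mean was 0.87 without experiment 1. It was 0.40 without only the lean pool of experiment 1 and 1.41 without only the obese pool. An unpaired mean then carries the level of the remaining pool. Hebp1, the source of an acetylated peptide that binds these receptors, differed by 0.69, 0.49, 0.47 and 0.15. Its mean was 0.45 (SE 0.30, and 0.11 with the block), 0.37 without experiment 1 and 0.19 without only the lean pool of experiment 1. Alox15, a lipoxygenase of pro-resolving lipid synthesis, lay at 4.03, 4.88, 4.88 and 4.51 in ATMs from obese mice and at 4.04, 7.72, 5.89 and 6.91 in ATMs from lean mice. Its differences were -0.01, -2.84, -1.01 and -2.41 (mean -1.57, SE 0.73, and -1.04 without the lean pool of experiment 2), and it was dim on both arrays of experiment 1. Saa3, an acute-phase serum amyloid A and another ligand, was picked after its values were seen. It lay at 7.72, 6.05 and 8.49 in the lean pools of experiments 2, 3 and 4, and at 4.91 in the obese pool of experiment 2. It was dim in the lean pool of experiment 1 (3.66) and in the obese pools of experiments 1, 3 and 4 (3.78, 4.27 and 3.98), so no mean difference is given.

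Of 14 genes for signalling from formyl peptide receptors, 1 was higher and 2 were lower in all 4 experiments, with a median of -0.01. Arrb1, which encodes an arrestin that binds activated receptors, differed by -0.29, -0.46, -0.47 and -0.41 (mean -0.41, SE 0.13). The other arrestin gene of the list, Arrb2, had no single direction, with 1.12, -0.03, -0.40 and 0.09 (mean 0.19, SE 0.68). Pik3r5, a regulatory subunit of the phosphoinositide 3-kinase that G proteins activate, differed by 1.32, 1.25, 0.05 and 0.44. Its mean was 0.76 (SE 0.64, and 0.24 with the block), 0.58 without experiment 1 and 0.20 without only the lean pool of experiment 1. Pik3cg, another gene of that kinase in the list, differed by 0.65, -0.32, -0.84 and -0.08 (mean -0.15, SE 0.81). Arrb2 and Pik3cg were looked up after their values were seen. The GTPase gene Rac1 differed by -0.10, -0.10, -0.04 and -0.09 (mean -0.08, SE 0.07), with a mean of -0.05 without the lean pool of experiment 1 and -0.17 after quantile normalization. Of 7 further annexin and formyl peptide receptor genes, 6 were dim on all 8 arrays (Anxa8, Anxa10, Anxa13, Fpr-rs3, Fpr-rs4 and Fpr-rs6). The exception, Anxa9, differed by 0.41, 0.14, 0.07 and 0.18 (mean 0.20, SE 0.21). That mean was 0.13 without experiment 1, and 0.02 and 0.31 without its lean or its obese pool. It was 0.11 without the obese and 0.32 without the lean pool of experiment 3.

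**Figure D4:**
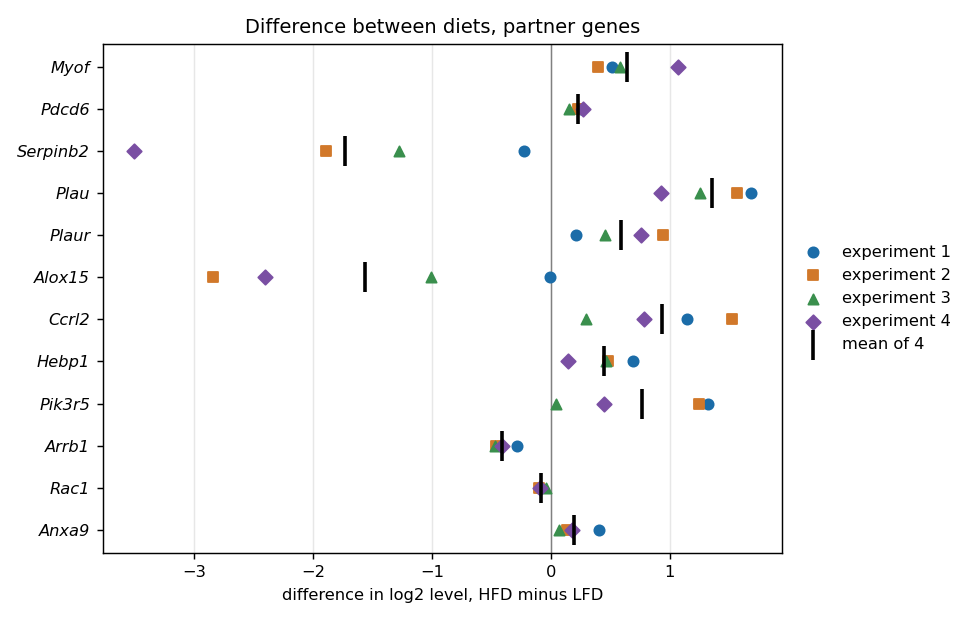
Difference in log2 level (HFD minus LFD) of 12 partner genes. Points stand for single experiments and the black bar for the mean of the 4. Plau lies between 0.93 and 1.69, and Serpinb2 and Alox15 lie below 0 with a wide spread, Serpinb2 against a dim obese pool in experiments 1 and 4 and Alox15 in experiment 1.

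The gene whose pattern over the 8 arrays lay nearest to each annexin was found among 10628 other genes that were not dim on 4 or more arrays, by the root mean square distance between levels centred on each gene's own mean. For Anxa1 it was Slc6a8, the creatine transporter (distance 0.14, where the own spread of Anxa1 was 0.86), with differences between diets of 1.28, 1.80, 2.00 and 0.97 in experiments 1 to 4. For Anxa4 it was Otulin, a deubiquitinase (0.08, own spread 0.62), and for Anxa5 Iqgap1, a cytoskeletal scaffold (0.06, own spread 0.27). For Anxa2 it was Hmgcs1, an enzyme of cholesterol synthesis (0.12, own spread 0.46), and for Anxa3 Rassf3 (0.09, own spread 0.35). These distances are a description over 8 arrays.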

How the data were processed

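Per the labels, ATM RNA of 8 pools was run on Affymetrix whole-transcript arrays. The deposited values are log2 levels that the authors obtained by RMA (version not given in the sources used here). Array medians of these log2 values lay between 4.25 and 4.39. The number of arrays limits the precision. Probe sets with 1 symbol (21218 of 35556) gave 18820 genes, each by its brightest probe set, and 18790 matched RefSeq by Entrez ID.

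HFD and LFD arrays were compared in limma 3.58.1 (R 4.3.3, lmFit and eBayes) across all genes, with Benjamini-Hochberg adjustment, a threshold of 0.05 and SE from the fit without a block. The sources used here state no array model. Experiment numbers pair the samples: the HFD and LFD arrays of an experiment shared deviations from the mean of their diet (r across genes, which are not replicates: 0.889, 0.357, 0.652 and 0.186 for experiments 1 to 4). Fits were tested on simulated data, in which the fat content term found 0 of the planted changes. Members and lists were chosen with earlier results of these data known. Named genes are all members and up to 3 genes per list. Those of the lists had the largest difference among genes of 1 sign in all 4 experiments and not dim. The nearest gene by pattern of each member higher in all 4 was also named. Named besides are S100a10, Saa3, Dysf, Trim72, Camp, Arrb2, Pik3cg and single cell type markers. P-values of limma set a difference against the spread between these pools, with the variance of each gene drawn toward that of all genes. Without a block that spread includes differences between experiments. Alternatives were the block, left-out arrays, scaling, dim genes, probe set choice, an intensity trend and the methods' t-test.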

Additional observations from a re-analysis of the deposited data

Results flagged for a closer look

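Among 40 groups of 4 pools (20 genes in each diet), 2 held a pool far from the others, where chance gives about 1 in 20 groups. The lean pool of experiment 2 was low for Plaur (7.23, against 7.85 to 7.92 in the other lean pools), with a gap of 0.889 of the group's range. The obese pool of experiment 1 was low for Ccrl2 (9.33, against 11.15 to 11.26 in the other obese pools), with a gap of 0.943 of the range. None of the 8 annexins held such a pool in either diet. For none of the 20 genes were both experiments with the 45 kcal% diet of one sign and both with the 60 kcal% diet of the other. The partner genes among them were picked for 1 sign in all 4 experiments, and 5 annexins were higher in all 4. Only Anxa6, Anxa7 and Anxa11 could thus have shown this pattern, and nothing is read from its absence.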

How the results depend on the processing

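The median difference of the 8 annexins was 0.43 and stayed between 0.36 and 0.51 over 18 alternatives. With experiment as a replicate block it was 0.43, as a block cannot move the mean difference of a balanced design. Leaving out dim genes could not move it either, as no annexin was dim. With the block 0 genes were called in limma, and no call on the diets or the lists changed. Every annexin but Anxa6 kept its direction in all 18 alternatives (Anxa1 1.23 to 1.71, Anxa2 0.60 to 0.90, Anxa3 0.18 to 0.54, Anxa5 0.36 to 0.53), whereas Anxa6 changed sign in 4 of them (-0.17 to 0.07), without the lean pool of experiment 2 (0.007) or 3 (0.07), without experiment 3 (0.07) and with all probe sets averaged (0.01). Anxa4 ranged from 0.33 to 0.91. Setting array medians equal moved the median of all genes from 0.005 to -0.05. The experiment term was less stable. It called 1687 genes and 1 annexin, 2579 genes and 2 annexins with array medians set equal, and between 0 and 2737 genes and 0 and 2 annexins when arrays or whole experiments were left out. The cause was not tested.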
